A study of Caenorhabditis elegans with 21 samples.

Results

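The loci described here are the small nuclear RNA (snRNA) genes of Caenorhabditis elegans with at least 1 sense read in any of 6 small RNA libraries, made from sperm, 1-cell embryos, oocytes and whole worms. Of 93 rows of the deposited snRNA table, 72 met this condition. The other 21 rows held no sense value, and 7 of these held antisense reads. All 93 rows matched a RefSeq gene by name. By gene symbol, the 72 loci comprised 2 sup genes, 11 sls-1 genes, 17 sls-2 genes and 6 smy genes. The other 36 carry a sequence name only and are given no family here.

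snRNAs are short nuclear RNAs that work as ribonucleoproteins with the Sm or Lsm proteins. U1, U2, U4, U5 and U6 form the spliceosome, which removes introns. sup-6 and sup-39 are known from suppressor genetics as U1 genes, and U1 pairs with the donor splice site at the start of an intron. Nematodes also join a short leader to many mRNAs by trans-splicing. The leader comes from SL1 RNA, encoded by near-identical tandem copies (sls-1), or from SL2 RNA (sls-2), which is used mainly at downstream genes of operons. SmY RNAs (smy) are Sm-bound RNAs that accompany trans-splicing. Fragments of such RNAs appear in small RNA libraries beside miRNAs and siRNAs, and a count of fragments is not a count of intact snRNAs.

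The sperm came from males of a fog-2(q71) strain, in which hermaphrodites make no sperm, and was filtered and activated with pronase before RNA extraction. The embryos were sorted at the 1-cell stage, and the 2 embryo libraries carry the same title with different replicate numbers although their strains differ. TX189 embryos came from TX189(OMA-1::GFP), a strain that carries a GFP-tagged oocyte protein. Hybrid embryos came from fem-1(hc17ts)/TX189(OMA-1::GFP) mothers, with a temperature-sensitive feminizing allele, and fathers of the Hawaiian isolate CB4856. Oocytes were picked from cut adult N2 hermaphrodites, the laboratory wild type. Whole adult worms were of CB4856 or of the strain of the hybrid mothers, called maternal-strain worms here, and the library of that strain is titled N2. All labels give 24 °C, and no label gives the sex of the worms. Each group has 1 small RNA library, so no difference between these libraries has a replicate check, and every interval below is an exact 95% interval that covers counting error only. Fewer cells of a type and less RNA per cell cannot be told apart in these bulk samples.

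The libraries held 9.546 M reads in 8 small RNA class tables for sperm, 15.32 M for TX189 embryos, 5.375 M for hybrid embryos, 8.103 M for oocytes, 2.232 M for CB4856 worms and 2.497 M for worms of the maternal strain. Mature miRNA markers of oocytes and early embryos, the miR-35 to miR-42 rows, summed to 1555 RPM of mature miRNA reads in sperm, 207700 RPM in TX189 embryos, 218000 RPM in hybrid embryos, 284000 RPM in oocytes, 23180 RPM in CB4856 worms and 12220 RPM in worms of the maternal strain. Somatic miRNAs, among them miR-1 and let-7, summed to 104500 RPM in sperm, 10500 RPM in TX189 embryos, 2100 RPM in hybrid embryos, 2319 RPM in oocytes, 60770 RPM in CB4856 worms and 56310 RPM in worms of the maternal strain. Among mature miRNA reads, somatic miRNAs thus stood higher in sperm than in either worm library. Mature miRNA reads numbered 0.6122 M in sperm, 21.68 M in CB4856 worms and 19.92 M in worms of the maternal strain. The order is therefore one of shares of mature miRNA reads and not of whole libraries. The part of somatic miRNAs in the results below was not tested. In the mRNA libraries, 5 sperm markers summed to 5559 RPKM in fog-2 sperm, against 7.732 to 8.502 RPKM in maternal-strain worms. In fog-2 sperm, cuticle markers summed to 1354 RPKM, muscle 118.0, yolk and intestine 302.7, and oocyte and embryo markers 512.1. Maternal-strain worms had 7055 to 7174, 159.3 to 160.4, 13480 to 13570 and 4144 to 4209 RPKM in that order. The fog-2 sperm mRNA library thus also held somatic marker RNA, with muscle markers near the worm level. The part of such RNA in the small RNA results was not tested.

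Sense reads of snRNA loci were a small part of every library. They numbered 4292 in sperm, 861 in TX189 embryos, 7970.5 in hybrid embryos, 6331.5 in oocytes, 1532 in CB4856 worms and 3170 in worms of the maternal strain. As a share of class reads this was 0.0450% in sperm (0.0436 to 0.0463), 0.00562% in TX189 embryos (0.00525 to 0.00601), 0.148% in hybrid embryos (0.145 to 0.152), 0.0781% in oocytes (0.0762 to 0.0801), 0.0686% in CB4856 worms (0.0653 to 0.0722) and 0.127% in worms of the maternal strain (0.123 to 0.132). The share was lowest in TX189 embryos and highest in hybrid embryos. Without F32B5.9, a locus of uncertain reads described below, it was highest in maternal-strain worms, at 0.125%, against 0.0846% in hybrid embryos and 0.0660% in CB4856 worms. With the mature miRNA reads added to the total, the share in worms was 0.00641% for CB4856 and 0.0141% for the maternal strain, so the place of the worms in this order depends on the total used.

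Of the 72 loci, 18 had sense reads in every library and 6 in a single library. A locus reached 20 reads in at least 1 library in 42 cases, and the other 30 stayed under 20 reads everywhere. Sense reads were found at 47 loci in sperm, 48 in TX189 embryos, 44 in hybrid embryos, 35 in oocytes, 50 in CB4856 worms and 52 in worms of the maternal strain. Few loci held most of the reads: the 5 highest took 83.2% in sperm, 72.6% in TX189 embryos, 88.5% in hybrid embryos, 92.2% in oocytes, 63.5% in CB4856 worms and 69.3% in worms of the maternal strain.

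**Figure D1:**
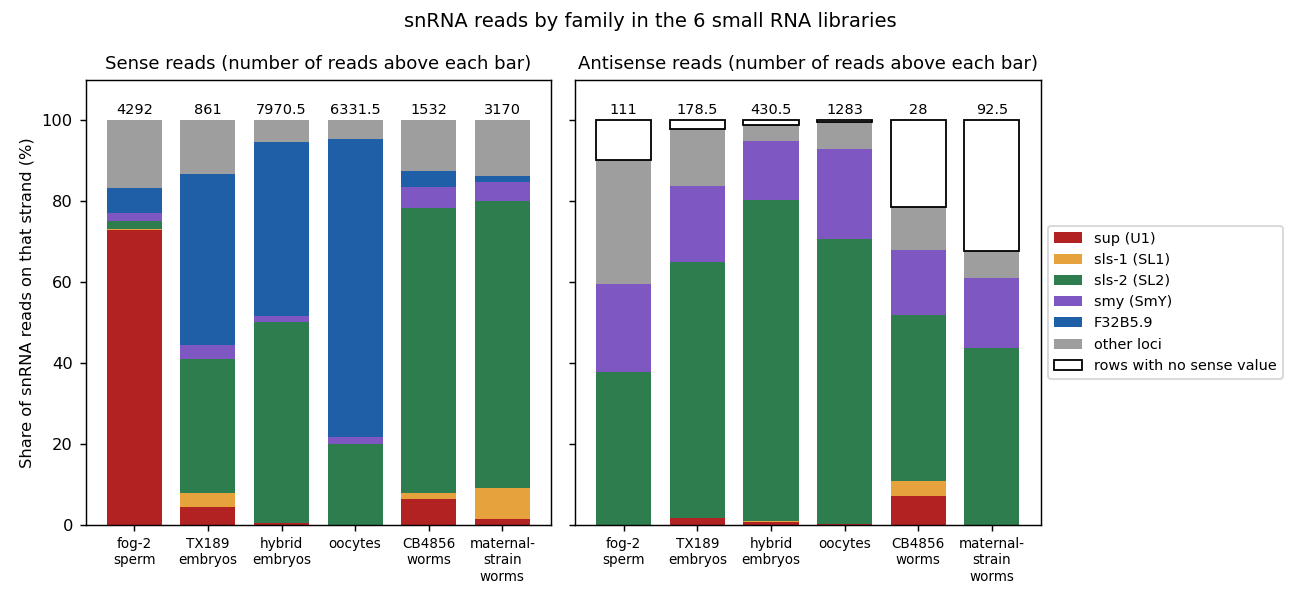
Share of snRNA reads (percent) by family in the 6 small RNA libraries, for sense reads (left) and antisense reads (right); numbers above the bars are reads. Sperm sense reads were mostly from the U1 genes sup-39 and sup-6 (73.0%), oocyte sense reads mostly from F32B5.9 (73.6%) and worm sense reads mostly from the SL2 genes (70.6% and 71.0%). Without F32B5.9 the SL2 share was 76.0% in oocytes and 87.1% in hybrid embryos, above both worm libraries.

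The 2 named U1 genes, sup-39 and sup-6, led the sperm library and were close to absent from the oocyte library. The 36 loci with a sequence name only were assigned neither to U1 nor to another family, so these values do not describe U1 as a whole. sup-39 had 2254 reads in sperm, 34 in TX189 embryos, 30 in hybrid embryos, 0 in oocytes, 78 in CB4856 worms and 37 in worms of the maternal strain. sup-6 had 878 reads in sperm, 3 in TX189 embryos, 8 in hybrid embryos, 1 in oocytes, 18 in CB4856 worms and 4 in worms of the maternal strain. Only the sperm library passed 100 reads at either gene. Together they made up 73.0% of snRNA sense reads in sperm (71.6 to 74.3), 4.30% in TX189 embryos (3.04 to 5.88), 0.477% in hybrid embryos (0.338 to 0.654), 0.0158% in oocytes (0.000400 to 0.0880), 6.27% in CB4856 worms (5.11 to 7.60) and 1.29% in worms of the maternal strain (0.930 to 1.75). In class RPM, the reads of a locus per M class reads (M stands for mega), sup-39 stood at 236.1 in sperm, 2.22 in TX189 embryos, 5.58 in hybrid embryos, 34.95 in CB4856 worms and 14.8 in worms of the maternal strain. With 3 reads in place of its 0, the oocyte library would stand at 0.370 class RPM. RefSeq places a gene named mir-1831, typed as snRNA, over sup-39, so reads of that gene and of sup-39 cannot be told apart here.

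A single locus without a family name, F32B5.9, led the oocyte library and both embryo libraries. It had 258.5 reads in sperm, 364 in TX189 embryos, 3427 in hybrid embryos, 4663 in oocytes, 59.5 in CB4856 worms and 51.5 in worms of the maternal strain. Its share of snRNA sense reads was 6.02% in sperm, 42.3% in TX189 embryos, 41.9 to 44.1% (interval) in hybrid embryos, 73.6% in oocytes, 3.88% in CB4856 worms and 1.63% in worms of the maternal strain. RefSeq places F32B5.9 inside cpz-1, a gene for a cathepsin Z-like protease, and the antisense value of the cpz-1 introns followed it closely. That intron value was 283.5 reads in sperm, 392 in TX189 embryos, 3434 in hybrid embryos, 4675 in oocytes, 63 in CB4856 worms and 54.5 in worms of the maternal strain. Values that end in 0.5 of a read show that some reads were divided, and F32B5.9 is 1 of 9 loci with such values. Whether they were divided between overlapping features was not tested, and sls-2.8, another of the 9, overlaps no protein-coding gene. Because the cpz-1 intron value is so close, the reads of F32B5.9 are given as uncertain between the snRNA and RNA antisense to that intron.

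**Figure D2:**
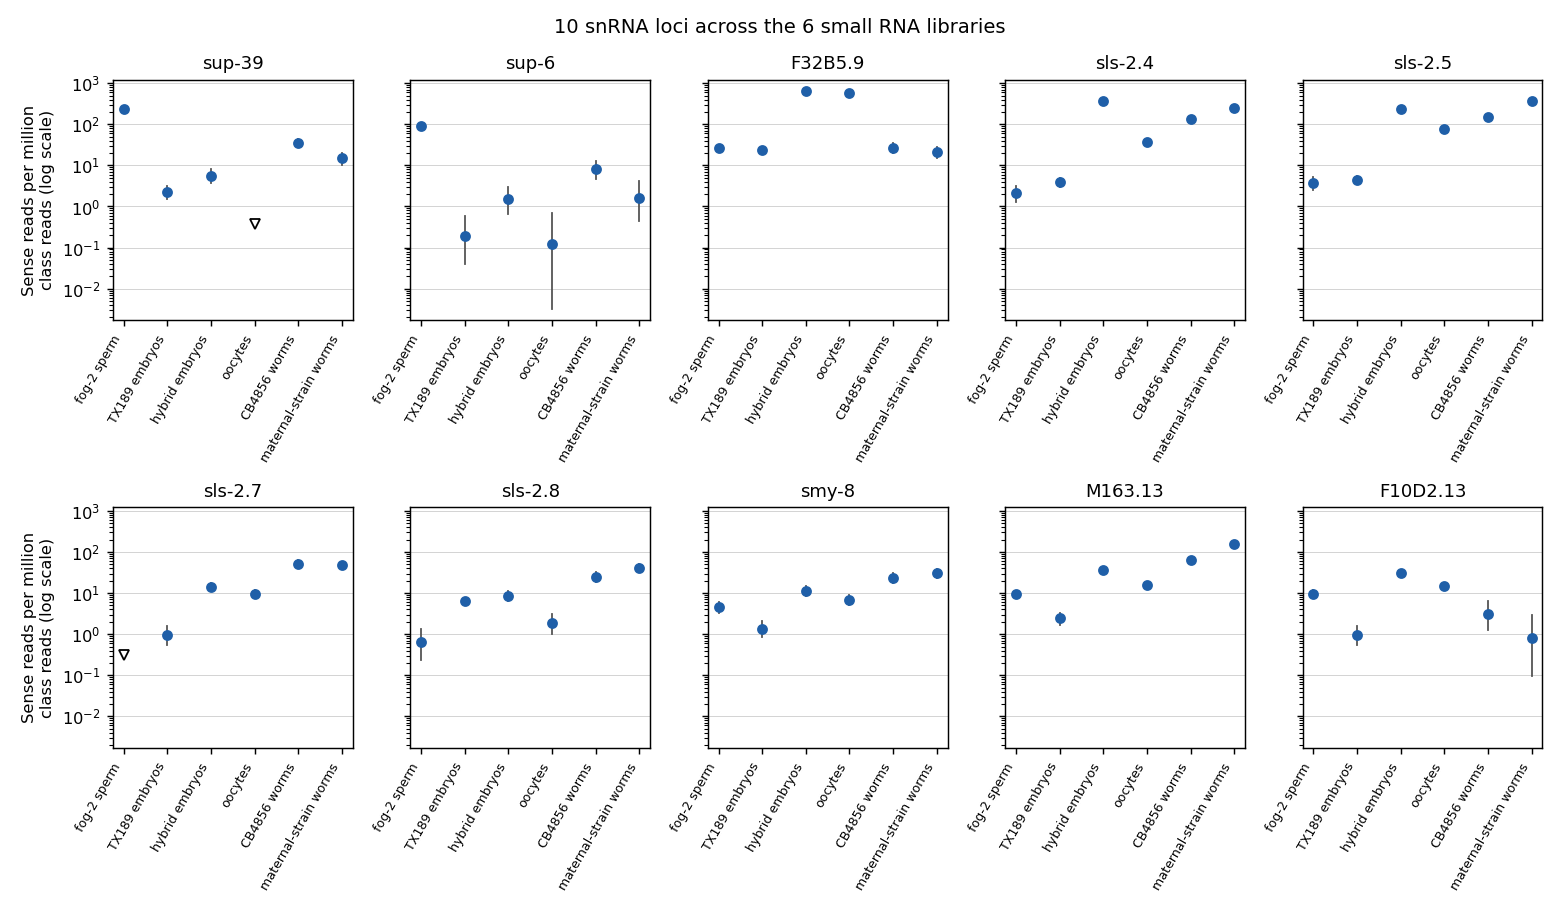
Sense reads in class RPM, reads per M class reads (log axis), of 10 snRNA loci in the 6 small RNA libraries, with exact 95% counting intervals; an open triangle marks a library under 1 read at its 3-read floor. sup-39 and sup-6 were highest in sperm, at 236.1 and 92.0 class RPM, F32B5.9 in hybrid embryos and oocytes, at 637.6 and 575.5 class RPM, and sls-2.5 in maternal-strain worms, at 364.5 class RPM.

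The 17 SL2 genes held most of the worm reads and the smallest share in sperm, while their shares in embryos and oocytes depend on F32B5.9. Their summed share was 2.02% in sperm (1.61 to 2.47), 33.2% in TX189 embryos (30.1 to 36.5), 49.6% in hybrid embryos (48.5 to 50.7), 20.02% in oocytes (19.05 to 21.03), 70.6% in CB4856 worms (68.3 to 72.9) and 71.0% in worms of the maternal strain (69.4 to 72.5). With F32B5.9 left out of the sums, the SL2 share was 2.15% in sperm, 57.5% in TX189 embryos, 87.1% in hybrid embryos, 76.0% in oocytes, 73.5% in CB4856 worms and 72.1% in worms of the maternal strain. Sperm was then the only library in which SL2 genes held a small share. sls-2.5 and sls-2.4 led the family in 5 of the 6 libraries. sls-2.5 had 35 reads in sperm, 68 in TX189 embryos, 1239 in hybrid embryos, 624 in oocytes, 332 in CB4856 worms and 910 in worms of the maternal strain. sls-2.4 had 20 reads in sperm, 60 in TX189 embryos, 1945 in hybrid embryos, 300 in oocytes, 302 in CB4856 worms and 634 in worms of the maternal strain. In TX189 embryos sls-2.8 was highest instead, with 96 reads, against 6 in sperm, 45.5 in hybrid embryos, 15 in oocytes, 56.5 in CB4856 worms and 103 in worms of the maternal strain. Copies of the family are known to be related in sequence, and how the tables divide reads among them was not tested.

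Reads of the 11 SL1 genes were far more numerous in maternal-strain worms than in any other library. The family summed to 2 reads in sperm, 30 in TX189 embryos, 3 in hybrid embryos, 0 in oocytes, 22 in CB4856 worms and 248 in worms of the maternal strain. In maternal-strain worms each copy held 16 to 34 reads, with a median of 22, and in CB4856 worms the copies held 0 to 5 reads, with a median of 2. Its share of snRNA sense reads was 0.0466% in sperm, 3.48% in TX189 embryos (2.36 to 4.94), 0.0376% in hybrid embryos, 1.44% in CB4856 worms (0.902 to 2.166) and 7.82% in worms of the maternal strain (6.91 to 8.81). The 0 reads of oocytes allow a share of up to 0.0582%. Since the copies are near-identical, the even division among them is uncertain and the family sum is the safer value.

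The 6 SmY genes held a small share of every library. Their summed share was 2.132% in sperm (1.73 to 2.62), 3.31% in TX189 embryos (2.172 to 4.67), 1.45% in hybrid embryos (1.204 to 1.74), 1.63% in oocytes (1.33 to 1.97), 5.29% in CB4856 worms (4.22 to 6.53) and 4.62% in worms of the maternal strain (3.90 to 5.39). In class RPM they stood between 1.86 in TX189 embryos and 58.7 in maternal-strain worms. smy-8 held the most in every library, with 44 reads in sperm, 21 in TX189 embryos, 61 in hybrid embryos, 56 in oocytes, 52 in CB4856 worms and 75 in worms of the maternal strain. smy-1 came next in sperm with 40 reads, and had 2 in TX189 embryos, 13 in hybrid embryos, 12 in oocytes, 23 in CB4856 worms and 37 in worms of the maternal strain.

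Beside F32B5.9, 35 loci have a sequence name only, and they held 16.8% of snRNA sense reads in sperm (15.7 to 18.0), 13.4% in TX189 embryos (11.3 to 15.9), 5.40% in hybrid embryos (4.91 to 5.91), 4.69% in oocytes (4.18 to 5.24), 12.5% in CB4856 worms (10.9 to 14.3) and 13.7% in worms of the maternal strain (12.5 to 14.9). This difference between sperm and oocytes came with F32B5.9 in the sums: without it the share was 17.9% in sperm and 17.8% in oocytes, with 23.2% in TX189 embryos, 9.47% in hybrid embryos, 13.0% in CB4856 worms and 13.9% in worms of the maternal strain. In the worms a single locus, M163.13, carried most of this, with 144 reads in CB4856 worms and 383 in worms of the maternal strain. M163.13 also had 89 reads in sperm, 37 in TX189 embryos, 195 in hybrid embryos and 130 in oocytes. F10D2.13 had 93 reads in sperm, 15 in TX189 embryos, 166 in hybrid embryos and 118 in oocytes, against 7 in CB4856 worms and 2 in worms of the maternal strain. In class RPM, F10D2.13 stood at 9.74 in sperm, 0.979 in TX189 embryos, 30.9 in hybrid embryos, 14.6 in oocytes, 3.14 in CB4856 worms and 0.801 in worms of the maternal strain, so TX189 embryos lay below CB4856 worms. In sperm the reads were spread over 27 of the 35 loci, with a median of 17 reads, against medians of 1 read in TX189 embryos and 0 in hybrid embryos and oocytes.

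Loci with at least 10 reads in sperm and under 1 in oocytes numbered 13, namely sup-39 and 12 with a sequence name only. These 12 were chosen for that difference, which is given as a description; the other 4 libraries took no part in the choice. They summed to 295.5 reads in sperm and 0 in oocytes. TX189 embryos had 27.5 reads at 10 of the 12, which was 3.19% of their snRNA sense reads. Hybrid embryos had 4.5 reads at 4 of them (0.0565%), CB4856 worms 2.5 reads at 3 (0.163%) and maternal-strain worms 2 reads at 2 (0.0631%). In class RPM the 12 summed to 30.96 in sperm, 1.79 in TX189 embryos, 0.837 in hybrid embryos, 1.12 in CB4856 worms and 0.801 in worms of the maternal strain. TX189 embryos thus stood further from hybrid embryos by share than in class RPM. The most abundant in sperm were F15H9.6 with 47 reads, W07G1.9 with 30 and F15H9.5 with 29. No single locus of the 12 passed 5 reads in TX189 embryos, so the embryo value rests on their sum of few reads.

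A locus was called between 2 libraries where its share of snRNA sense reads differed at least 4-fold with at least 20 reads in the library of the higher share. A library under 1 read was set to a floor of 3 reads, and the ratio is then a lower bound. A locus with under 20 reads in 1 library of a pair could only be called higher in the other. The same rule was run over the features of all 8 class tables, each scaled to its own table, to give a background. Sperm was set against oocytes to compare the male and female gametes. Of 27 loci that could be called, 16 were higher and 7 lower in sperm, or 59.3% and 25.9%, against 33.4% higher and 26.8% lower over all features. The median log2 ratio was 3.30 over these loci and 0.74 over all features. Of the 16 higher loci, only F11A5.14, with 25 reads, reached 20 reads in oocytes. The others passed through sperm alone and could only be called higher. Of the lower loci, sls-2.1, sls-2.7, sls-2.15 and smy-11 could only be called lower. The features of the background were under the same limit.

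Higher in sperm were both U1 genes, 13 of 16 loci with a sequence name only, and smy-1. Lower were 5 of 6 SL2 genes, smy-11 and F32B5.9. sup-39 was at least 900.6-fold higher in sperm by share. sup-6 was 1295-fold higher, with an interval of 232 to 51220 because oocytes had 1 read. C27H5.11 followed, with 60 reads in sperm and 2 in oocytes, a ratio of 44.3 (11.7 to 374). In the other direction sls-2.15 had 0 reads in sperm and 1.96% of the sense reads in oocytes and was at least 22.4-fold lower. sls-2.7 had 0 reads in sperm and 77 in oocytes and was at least 13.8-fold lower. F32B5.9 was 12.2-fold lower (10.8 to 13.9).

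The number of loci higher in sperm depends on F32B5.9, which took most of the oocyte reads. With F32B5.9 left out of the column sums, 7 loci were higher and 7 lower in sperm. The shares over all features, with F32B5.9 in the sums, were 33.4% higher and 26.8% lower. The count higher then no longer exceeded the count lower. In class RPM, 14 of 27 were higher and 8 lower, or 51.9% and 29.6%, against 43.1% higher and 24.6% lower over all features. On that scale sup-39 was at least 518.2-fold higher in sperm and sup-6 was 745.3-fold higher (133.4 to 29470). The smy-1 call was lost while both U1 genes stayed called.

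**Figure D3:**
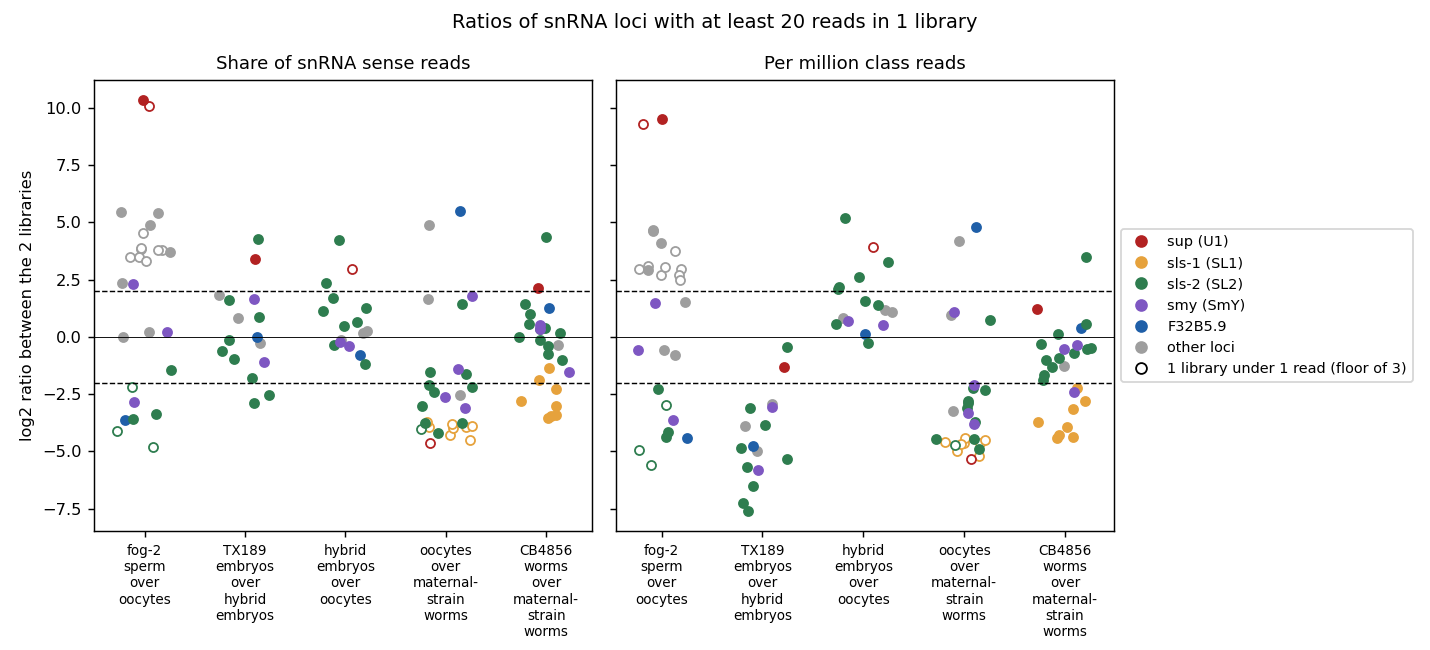
log2 ratios of snRNA loci with at least 20 reads in 1 library of the pair, by share of snRNA sense reads (left) and in class RPM (right), with dashed lines at 4-fold. Open circles are ratios taken with the 3-read floor. Sperm over oocytes has 16 loci above and 7 below the lines by share; TX189 over hybrid embryos has 2 and 2 by share but 0 and 14 in class RPM.

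TX189 embryos were next set against hybrid embryos, which compares 2 embryo libraries of different strains. By share, 2 of 16 loci were higher and 2 lower in TX189 embryos, or 12.5% each, against 18.4% higher and 18.3% lower over all features. sls-2.8 made up 11.1% of snRNA sense reads in TX189 embryos and 0.571% in hybrid embryos, a ratio of 19.5 (13.5 to 28.1). sup-39 made up 3.95% in TX189 embryos and 0.376% in hybrid embryos, a ratio of 10.5 (6.23 to 17.8). Lower were sls-2.15, with 1 read in TX189 embryos and 68 in hybrid embryos (7.35-fold, 1.28 to 294), and sls-2.2, with 4 and 216 reads (5.83-fold, 2.25 to 21.6). The SL1 genes as a family had 30 reads in TX189 embryos and 3 in hybrid embryos, a ratio of 92.6 (28.8 to 474), though no single copy reached 20 reads. F32B5.9 had nearly the same share in both, with a ratio of 0.983 (0.880 to 1.096).

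In class RPM, snRNA reads as a whole stood at 56.19 in TX189 embryos and 1483 in hybrid embryos. None of the 16 loci was then higher and 14 were lower in TX189 embryos, which is 87.5%, against 15.6% higher and 22.6% lower over all features. Both loci with a higher share turned lower on this scale, sls-2.8 to a ratio of 0.740 (0.510 to 1.06) and sup-39 to 0.398 (0.236 to 0.673), though neither was called. F32B5.9 was 26.8-fold lower in class RPM in TX189 embryos. The SL1 family ratio was 3.51 on this scale. The embryo libraries also differed in other classes: snoRNA sense reads were 0.0501% of class reads in TX189 embryos and 20.2% in hybrid embryos, and the part of this in the snRNA values was not tested.

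Hybrid embryos were set against oocytes to compare the zygote with the female gamete. By share, 3 of 16 loci were higher in hybrid embryos and 0 lower, or 18.8% and 0%, against 23.9% higher and 9.33% lower over all features. All 3 were SL2 or U1 genes. sls-2.2 had 216 reads in hybrid embryos and 9 in oocytes, a ratio of shares of 19.1 (9.86 to 42.3). sup-39 had 30 reads in hybrid embryos and 0 in oocytes and was at least 6.07-fold higher. sls-2.4 was 5.15-fold higher (4.56 to 5.84). Without F32B5.9 in the sums, 1 locus was higher and 1 lower, beside 23.9% and 9.33% over all features with it in the sums. Counted in class RPM, 6 loci were higher and 0 lower, or 37.5% and 0%, against 45.0% higher and 3.24% lower over all features. On that scale F32B5.9 had a ratio of 1.11 (1.06 to 1.16).

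Oocytes were set against whole maternal-strain worms, which differ from the oocyte donors in strain. By share, 2 of 28 loci were higher in oocytes and 20 lower, or 7.14% and 71.4%, against 27.8% higher and 28.4% lower over all features. Lower were 8 SL1 genes, 8 of 11 SL2 genes, smy-1, smy-10, sup-39 and M163.13. The 8 SL1 genes had 0 reads in oocytes and reached 20 reads only in maternal-strain worms. With the floor each could only be called lower, and they are part of the 71.4%. sup-39 was at least 19.05-fold lower in oocytes, sls-1.3 at least 17.43-fold and sls-1.2 at least 14.72-fold. The SL1 copies are near-identical, and whether these 8 calls are separate observations was not tested. Higher were F32B5.9, by 45.3-fold (34.2 to 60.2), and F10D2.13, by 29.5-fold (7.998 to 247). Without F32B5.9 in the sums, 4 loci were higher and 8 lower, beside 27.8% and 28.4% over all features with it in the sums. On the class RPM scale, 2 were higher and 23 lower, or 7.14% and 82.1%, against 16.3% higher and 55.6% lower over all features.

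CB4856 worms were set against maternal-strain worms to compare the parental strains. By share, 2 of 26 loci were higher and 6 lower in CB4856 worms, or 7.69% and 23.1%, against 11.5% higher and 10.7% lower over all features. All 6 lower loci were SL1 genes, of 8 that could be called, so the 23.1% rests on this family alone. With 1 to 4 reads in CB4856 worms, each of the 8 could only be called lower. Because the SL1 copies are near-identical, the 6 calls may not be separate observations, which was not tested. The family as a whole had 22 reads in CB4856 worms and 248 in worms of the maternal strain, a ratio of shares of 0.184 (0.113 to 0.284). sls-1.9 and sls-1.5 had 1 read each in CB4856 worms and 24 and 23 in worms of the maternal strain, and sls-1.8 had 1 and 22. Higher were sls-2.14, with 35 reads in CB4856 worms and 3.5 in worms of the maternal strain (20.7-fold, 6.47 to 70.1), and sup-39, with 78 and 37 reads (4.36-fold, 2.91 to 6.64). sup-39 also led the sperm library. In the mRNA libraries sperm markers summed to 899.9 to 915.9 RPKM in CB4856 worms and 7.732 to 8.502 RPKM in maternal-strain worms. The part of sperm content in the sup-39 value was not tested. The SL2 family as a whole had a ratio of shares of 0.995 (0.925 to 1.07). With class RPM, 1 locus was higher and 9 lower, or 3.85% and 34.6%, against 11.7% higher and 12.3% lower over all features. sup-39 was then no longer called. Of the 9 lower loci, 8 were SL1 genes, under the same limit.

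Antisense reads at snRNA loci took a larger part of the snRNA reads in oocytes and TX189 embryos than in the other libraries. They numbered 111 in sperm, 178.5 in TX189 embryos, 430.5 in hybrid embryos, 1283 in oocytes, 28 in CB4856 worms and 92.5 in worms of the maternal strain. As a share of all snRNA reads, F32B5.9 included, this was 2.52% in sperm (2.08 to 3.03), 17.2% in TX189 embryos (14.9 to 19.5), 5.12% in hybrid embryos (4.66 to 5.61), 16.9% in oocytes (16.02 to 17.7), 1.80% in CB4856 worms (1.196 to 2.58) and 2.84% in worms of the maternal strain (2.28 to 3.45). Without F32B5.9 the share was 2.68% in sperm, 26.4% in TX189 embryos, 8.65% in hybrid embryos, 43.5% in oocytes, 1.87% in CB4856 worms and 2.88% in worms of the maternal strain. Antisense reads of exons, the class of most siRNAs, were 75.3% of class reads in sperm, 81.4% in TX189 embryos, 55.5% in hybrid embryos, 82.0% in oocytes, 22.8% in CB4856 worms and 26.9% in worms of the maternal strain, and their part in the snRNA antisense values was not tested.

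The leading antisense loci were in part the leading sense loci and in part others. Of the 72 loci, 37 had antisense reads in any library. SL2 genes held 37.8% of the antisense reads in sperm, 63.3% in TX189 embryos, 79.3% in hybrid embryos, 70.4% in oocytes, 41.1% in CB4856 worms and 43.8% in worms of the maternal strain. sls-2.7 had 14 antisense reads in sperm, 13 in TX189 embryos, 167 in hybrid embryos, 473 in oocytes, 6 in CB4856 worms and 23 in worms of the maternal strain. In oocytes 86.0% of the sls-2.7 reads were antisense, against 16.1% in maternal-strain worms. sls-2.17 was almost wholly antisense, with 20 antisense and 0 sense reads in TX189 embryos, 73 and 8 in hybrid embryos, and 205 and 2 in oocytes.

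By contrast, sls-2.5 and sls-2.4 had 0 to 2 antisense reads in every library, beside 20 to 1945 sense reads. F32B5.9, highest of all on the sense strand of oocytes, had 0.5 of an antisense read there and 0 in the other 5 libraries. Outside the SL2 family, smy-8 held 18 antisense reads in sperm, 30 in TX189 embryos, 51 in hybrid embryos, 261 in oocytes, 4 in CB4856 worms and 15 in worms of the maternal strain. That was 82.3% of its reads in oocytes and 16.7% in maternal-strain worms. RefSeq places the piRNA genes 21ur-3338 and 21ur-2046 over smy-8. Whether the smy-8 reads came from these piRNA genes was not tested. In sperm F10D2.13 had the most, with 23 antisense reads of 111, beside 93 sense reads. In TX189 embryos sls-2.8 led the antisense reads with 43.5, beside 96 sense reads, and sls-2.15 had 24. The U1 genes sup-39 and sup-6 had 0 antisense reads in sperm, beside 3132 sense reads.

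**Figure D4:**
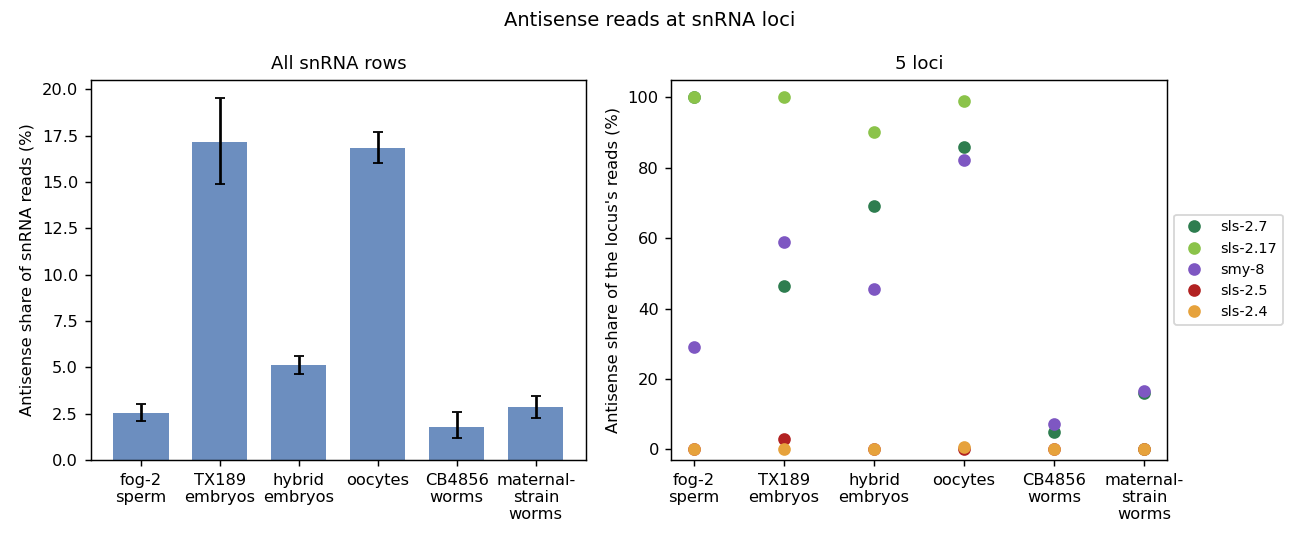
Antisense share of snRNA reads (percent) in the 6 small RNA libraries with exact 95% binomial intervals (left), and the antisense share of each of 5 loci (right). Oocytes and TX189 embryos stand at 16.9% and 17.2%; sls-2.7, sls-2.17 and smy-8 were mostly antisense in oocytes, while sls-2.4 and sls-2.5 stayed near 0% in every library. smy-8 overlaps piRNA genes, whose part in its reads was not tested.

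RefSeq places 29 of the 72 loci within or overlapping a protein-coding gene, and 8 of the 9 loci with divided reads are among them. Besides F32B5.9 these include sls-2.14 in W09D6.5 and sls-2.16 and sls-2.18 in glr-2, a glutamate receptor gene. Apart from protein-coding genes, smy-8 and smy-10 overlap piRNA genes, 21ur-3398 in the case of smy-10. sls-2.5 also lies in glr-2, where the antisense intron value was 9 reads in oocytes, against 624 sense reads of sls-2.5 itself. For sls-2.14 the antisense intron value of W09D6.5 was 35 reads in CB4856 worms and 3.5 in worms of the maternal strain, the same values as those of sls-2.14, so its call between the worm strains is uncertain between both features.

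None of the snRNA loci was found in the deposited mRNA table, so the mRNA libraries give no level for them. They do give the mRNAs of the proteins that make, carry and use snRNAs. Of a list of 68 such genes 58 were in the table, and all 58 passed the filter of 1 RPKM in 3 of 12 libraries. Each mRNA group has 3 libraries, of which replicates 1 and 2 differed by little more than read sampling (dispersion 1.07 to 1.24, where 1 is read sampling) and were counted as 1 sample, giving n = 2 per group. Replicate 3 differed from replicate 1 by 2.04 to 13.1 on the same scale. Nothing says that the samples came from separate cultures, so p-values measure the spread between these samples.

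In poly(A)-selected hybrid embryos most genes of the snRNP core were higher than in maternal-strain worms. By limma with Benjamini-Hochberg adjustment over 11401 genes, and a log2 difference of at least 1 on the log2(RPKM + 1) scale, 31 of the 58 rose and 2 fell, or 53.4% and 3.45%, against 30.5% and 24.6% of all genes. The median log2 difference was 1.45 over the list and 0.03 over all genes. All 7 Lsm genes and 6 of 7 Sm genes rose, as did 4 of 7 genes of SNAPc, the complex that drives snRNA transcription, and 3 of 4 genes of the spliced-leader-associated group. None of 10 genes of Integrator, which cuts the ends of snRNA precursors, passed. The embryo samples differed for several Sm and Lsm genes, as for snr-6 with 3928 and 1094 RPKM. Quantile normalization gave 21 higher and 7 lower, and moved the median of all genes to 0.14.

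On the log2(RPKM + 1) scale the largest differences of the list were those of sftb-6, rnp-2 and rnp-3. This scale understates genes of low level, such as snpc-1.3, which had 5.398 and 8.424 RPKM in embryos, against 0.259 and 0.322 RPKM in maternal-strain worms (2.59 ± 0.19 SE). sftb-6, an SF3b subunit, had 288.7 and 320.5 RPKM in embryos, against 18.84 and 17.83 RPKM in maternal-strain worms, a log2 difference of 3.98 ± 0.39 (SE, adjusted p = 0.000222 by limma). rnp-2, a protein of the U1 snRNP, had 128.4 and 174.1 RPKM in embryos and 11.43 and 11.16 RPKM in worms (3.61 ± 0.50 SE, adjusted p = 0.00104 by limma). rnp-3, a relative of rnp-2, had 139.2 and 171 RPKM in embryos and 12.89 and 12.65 RPKM in worms (3.49 ± 0.31 SE). smn-1, which loads Sm proteins onto snRNAs, had 142.1 and 180 RPKM in embryos and 17.14 and 16.07 RPKM in worms. The embryo samples lay above the worm samples for each of these 4 genes, which follows from their choice as those with the largest differences.

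The genes of trans-splicing moved the same way in part. sna-1 and sna-2, proteins found with spliced-leader RNAs, had log2 differences of 2.28 ± 0.22 and 1.96 ± 0.25 (SE, adjusted p = 0.000192 and 0.0007 by limma). The 2 genes that fell encode large spliceosome proteins: snrp-200, a U5 helicase, had 27.45 and 29.84 RPKM in embryos and 99.49 and 100.6 RPKM in worms, and prp-8, the U5 core protein, had 7.652 and 34.71 RPKM in embryos and 62.53 and 64.29 RPKM in worms. The prp-8 samples of embryos differed from each other more than 4-fold (log2 difference -1.87 ± 0.61 SE, adjusted p = 0.034 by limma).

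**Figure D5:**
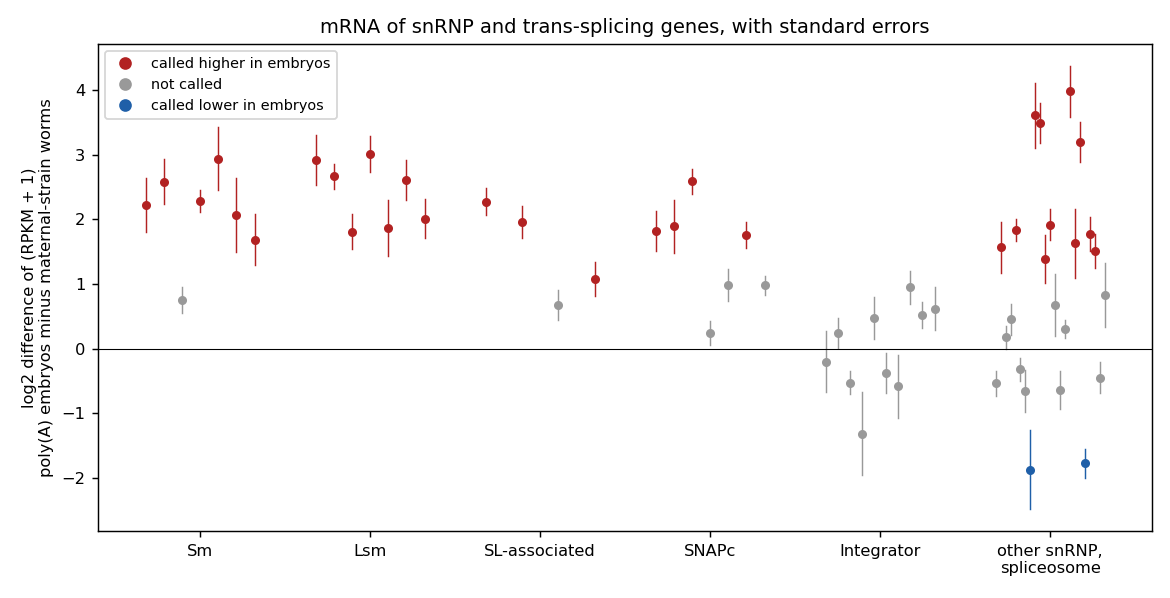
log2 difference of (RPKM + 1), poly(A) hybrid embryos minus maternal-strain worms, for 58 genes of snRNA function, with standard errors; colours give the limma call. The Lsm and Sm genes lie above 0.7, with 13 of 14 called higher, and Integrator genes lie around 0 with none called.

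Between CB4856 and maternal-strain worms 1 of the 58 genes was called higher and 0 lower (limma), or 1.72% and 0%, against 13.5% and 1.67% of all genes, and 5 of the 58 had an unadjusted p under 0.05. The called gene was snpc-1.3, a SNAPc subunit known for piRNA transcription in the male germline. It had 1.562 and 1.632 RPKM in CB4856 worms and 0.259 and 0.322 RPKM in worms of the maternal strain (log2 difference 1.01 ± 0.19 SE, adjusted p = 0.00988 by limma), close to the threshold of 1, and the call was lost without any 1 of the 4 samples. snpc-1.3 also had 26.0 RPKM in CB4856 sperm of low purity, 22.99 RPKM in CB4856 sperm of high purity and 23.7 RPKM in fog-2 sperm, each a single library. Sperm markers summed to 899.9 to 915.9 RPKM in CB4856 worms and 7.732 to 8.502 RPKM in worms of the maternal strain, and their part in the snpc-1.3 value was not tested.

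Poly(A)-selected embryos were also set against rRNA-depleted (RiboMinus) embryos of the same cross, which compares library types. Of the 58 genes 18 were higher and 8 lower in the poly(A) libraries (limma), or 31% and 13.8%, against 11.9% and 8.37% of all genes. Of the Lsm and Sm genes 12 of 14 were higher, and ints-3 had the largest difference, with 0.598 and 6.143 RPKM in poly(A) and 82.42 and 80.52 RPKM in RiboMinus embryos (log2 difference -4.61 ± 0.64 SE, adjusted p = 0.00636 by limma). With only these 2 groups in the fit, 0 genes were called in either direction. In RiboMinus embryos snr-3, snr-7 and lsm-5 averaged 198.5, 133 and 115.3 RPKM. These lay below the 363.9, 171.1 and 122.7 RPKM of maternal-strain worms. The other Sm and Lsm genes averaged higher in RiboMinus embryos than in those worms. Highest in poly(A) over RiboMinus embryos were smi-1, an SMN partner, at 3.08 ± 0.54, and rnp-7, the U1-70K protein, at 2.42 ± 0.37 on the log2 scale (SE).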

How the data were processed

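The 6 small RNA libraries were analysed with the 12 replicated mRNA libraries of 4 groups and 3 single sperm mRNA libraries. Reads were aligned with BWA, per the submitters' processing notes; version, genome build and annotation are not given in the sources used here. The deposited small RNA class tables hold a signal: whole reads scaled by 1 constant in each library, whose origin the authors do not explain. Dividing by the most common value gave reads. Of the values, not the reads, 85.0% to 87.2% were whole within 0.01 read in all classes and 86.4% to 92.7% in the snRNA table. The rest hold divided reads, and a whole value can also be a sum of divided reads. Mature miRNAs were deposited as RPM and are not in the class totals. The mRNA table holds RPKM made by the authors. Each small RNA table also has 8 value columns with no matching sample, which were left out; embryo and sperm columns were matched by title, oocyte and worm columns by elimination. Identical repeated rows of 5 genes in each of the exon and intron tables were dropped.

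Sense and antisense reads were each scaled to their column sum. Intervals are exact: Clopper-Pearson for shares, conditional binomial for ratios (scipy 1.17.1). Reads carry no molecular identifiers, so intervals and floors cover counting error only. Gene symbols and overlaps came from RefSeq (assembly WBcel235); no coordinates are given, since the build of the files is not stated. The 3 most different called loci in each direction per pair, and the 5 highest sense and 3 highest antisense loci per library, were named. The gene classes, lists and loci were chosen with earlier results of these data known; so was the list of 68 mRNA genes.

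For mRNA, limma 3.58.1 under R 4.3.3 was run with its trend option in 1 fit of 4 groups on log2(RPKM + 1), and genes were called at an adjusted p under 0.05. A fold change on this scale understates the change of low genes. On simulated data with each group's own spread, the fit found 82 of 100 genes changed by 2 on the log2 scale in embryos against maternal-strain worms with 80 false calls among 11201 unchanged genes, 71 with 1 false call between worms, and 70 with 172 false calls between embryo libraries. The 4-fold rule and its intervals were tested on simulated counts as well.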

Additional observations from a re-analysis of the deposited data

Results flagged for a closer look

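Antisense reads were found at snRNA rows that held no sense read in any library, above the 3 reads that a count of 0 allows. sls-1.12, an SL1 gene, had 5 antisense reads in CB4856 worms and 22 in worms of the maternal strain, which was 17.9% and 23.8% of the snRNA antisense reads of those libraries, beside 2 in TX189 embryos and 1 in hybrid embryos. The 11 SL1 genes with sense reads had 1 antisense read in CB4856 worms and 0 in worms of the maternal strain. F08G2.11 had 11 antisense reads in sperm, 9.91% of the antisense reads there, and 2 in TX189 embryos. smy-7, an SmY gene, had 3 antisense reads in hybrid embryos, 1 in CB4856 worms and 7 in worms of the maternal strain.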

How the results depend on the processing

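The snRNA share of class reads, in percent, depends on the total. In the order sperm, TX189 embryos, hybrid embryos, oocytes, CB4856 worms and maternal-strain worms, it was 0.0507, 0.00612, 0.162, 0.0818, 0.0769 and 0.142 without rRNA and tRNA in the total. Without F32B5.9 it was 0.0423 in sperm, 0.00324 in TX189 embryos, 0.0846 in hybrid embryos, 0.0206 in oocytes, 0.0660 in CB4856 worms and 0.125 in worms of the maternal strain, which were then highest. Alternatives chosen after seeing the data gave, with mature miRNA reads in the total, 0.0423, 0.127 and 0.0757 in sperm, hybrid embryos and oocytes and 0.00641 and 0.0141 in the worms; and, with divided reads counted whole, 0.0479, 0.00865, 0.214, 0.136, 0.0772 and 0.136 in the 6 libraries. Without sls-2.7 the antisense percent was 3.23 in hybrid embryos, 11.5 in oocytes and 2.23 in maternal-strain worms; without F32B5.9, chosen after seeing the data, it was 26.4 in TX189 embryos, 8.65 in hybrid embryos and 43.5 in oocytes. Without F32B5.9 in the sums, called loci (higher, lower) numbered 7 higher in sperm than oocytes, 1 and 1 for hybrid embryos over oocytes, and 4 and 8 for oocytes over maternal-strain worms. In class RPM, they numbered 0 and 14 for TX189 over hybrid embryos, 6 higher for hybrid embryos over oocytes and 1 higher for CB4856 over maternal-strain worms; log2 ratios turned to -0.43 for sls-2.8 and -1.33 for sup-39 in TX189 over hybrid embryos. At 50 reads, 4 were higher in sperm, 1 in TX189 embryos, 7 lower in oocytes than worms, and 1 higher and 0 lower in CB4856 worms. At 2-fold, 6 were higher and 1 lower in hybrid embryos than oocytes, 4 lower in TX189 than hybrid embryos, 5 higher in oocytes than worms and 5 in CB4856 than maternal-strain worms. In these cases the cause was not tested. No share over all features is given at 50 reads or at 2-fold, so these counts have no background. Of 67 recomputed ratios of named loci 62 kept their call.

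For the mRNA list, embryos over maternal-strain worms had 1 gene lower with no filter, 1 lower with only the compared groups in the fit and 7 lower after quantile normalization. Between worms, 0 were higher at a pseudocount of 5, after quantile normalization (2 lower) or after median centring, which moved the median of all genes to -0.20. poly(A) over RiboMinus embryos had 0 and 0 with only the compared groups. Leaving out 1 sample gave 24 to 33 higher and 1 to 6 lower for embryos over worms, 0 to 0 between worms, and 10 to 18 higher and 6 to 12 lower between embryo libraries; the lone sample is then assumed to vary like the other groups. With the replicate number as a block, counts were 30 and 2, 1 and 0, and 18 and 8. Nothing in the labels pairs the numbers, and samples with the same number deviated together with correlations of 0.0843 to 0.711. No paired analysis was possible for the small RNA libraries because each group has 1.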
